A study of Mus musculus with 8 samples.

Results

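The genes of the mitochondrial ribosome whose mouse symbol is Mrpl or Mrps followed by a number, with an optional letter, were followed through the first cell division of mouse embryos that had been given extra Sm protein mRNA. The rule found 77 genes, 48 for proteins named after the large subunit (Mrpl) and 29 for proteins named after the small subunit (Mrps), among 21553 genes with a value. It used symbols and no measured value. The RNA came from whole embryos of B6CBA F1 crosses at 2 stages, and no allele or transgene is named in the labels. At the 2-cell stage (24 h after injection) and at the 1-cell stage (zygotes, 5 h after injection) there were 4 kinds of embryos each: those injected as zygotes with Snrpb mRNA, with Snrpd2 mRNA, with both, and with mCherry mRNA, a fluorescent protein that served as the control. Every embryo, controls included, had therefore been microinjected. Each of these 8 conditions was 1 polyadenylated RNA library made from a pool of 40 embryos of 3 independent experiments. With 1 pool per condition, the spread between embryos and between experiments is hidden, and p-values measure only the spread between differently injected pools.

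Mitochondria translate the few mRNAs of their own genome on a dedicated ribosome. Its rRNAs come from mitochondrial DNA, but all its proteins are encoded in the nucleus, made in the cytosol and imported. Part of them descend from proteins of the bacterial ribosome and part were added in the mitochondrial lineage. The fertilised mouse egg inherits its mitochondria and a stock of mRNA from the oocyte, and much of that stock is removed around the time when the embryonic genome is switched on at the 2-cell stage. Sm proteins, among them those encoded by Snrpb and Snrpd2, assemble on small nuclear RNAs to build the particles that splice pre-mRNA.

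Libraries held between 39492734 and 59979046 counted reads, of which the 77 genes took between 0.149% and 0.183% at the 2-cell stage and between 0.190% and 0.230% at the 1-cell stage. Levels are given as cRPKM, the deposited count scaled by gene length and library size, so that genes of different length can be set side by side. The injected mRNAs stood out in the libraries named for them: at the 1-cell stage Snrpb had 2924694 reads in the Snrpb library, 655262 with both mRNAs and 367 with Snrpd2 alone, against 494 with mCherry, and Snrpd2 had 248504 reads in the Snrpd2 library, 115753 with both and 13 with Snrpb alone, against 27 with mCherry. At the 2-cell stage Snrpb had 76854, 38483 and 1300 reads with Snrpb, both and Snrpd2, against 823 with mCherry, and Snrpd2 had 59894, 47785 and 54 reads with Snrpd2, both and Snrpb, against 115 with mCherry. The stages could also be told by their markers. All 11 oocyte and zygote markers had at least 10 reads in every library, and they summed to between 4365 and 5201 cRPKM at the 2-cell stage and between 7243 and 8204 cRPKM at the 1-cell stage. Of these 11, 10 were lower at the 2-cell stage, while Dppa3 averaged 2839 cRPKM there and 2481 cRPKM at the 1-cell stage. The 7 markers of 2-cell embryos summed to between 1896 and 3487 cRPKM at the 2-cell stage and between 68.5 and 185 cRPKM at the 1-cell stage. Gm2016 alone had between 1627 and 3225 cRPKM at the 2-cell stage. Of these 7, 6 were higher at the 2-cell stage, while Sp110 was lower, with means of 23.1 cRPKM there and 64.7 cRPKM at the 1-cell stage. Among markers of other cells, those of sperm summed to at most 5.31 cRPKM in any library, and those of blood to between 43.2 and 56.7 cRPKM at the 2-cell stage, nearly all from Hba-a2 and Lyz2, against at most 1.34 cRPKM at the 1-cell stage. The other blood markers were absent or near 0, as Hbb-bs and Hbb-bt had 0 cRPKM in every library. Hba-a1 had at most 0.31 cRPKM and Ptprc at most 0.06 cRPKM.

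All but 1 of the 77 genes passed the filter on low counts and were tested. Mrpl23, whose bacterial counterpart sits at the exit of the peptide tunnel, had fewer than 10 reads in every library and was not tested. The median over the genes of the mean level was 11.8 cRPKM at the 2-cell stage and 11.8 cRPKM at the 1-cell stage. The same median over all genes with a value was 1.43 cRPKM and 0.62 cRPKM at those stages. Of the 77 genes, 42 had a mean of at least 10 cRPKM in 2-cell embryos and 40 in 1-cell embryos, while 5 and 9 reached 50 cRPKM. They are short, with a median length behind the deposited values of 1060 bases, against 2466 bases for all genes for which a length could be computed.

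The highest level belonged to Mrpl18, the homolog of the bacterial large subunit protein that binds 5S rRNA. It had 102, 111, 103 and 101 cRPKM in 2-cell embryos given Snrpb, Snrpd2, both and mCherry, and 101, 103, 102 and 119 cRPKM in 1-cell embryos; wherever 4 values of a stage follow, they are in this order of injections. The stages overlapped, and the 1-cell mCherry library was the highest of all. Mrpl40, a mitochondria-specific protein of the large subunit, had between 50.3 and 59.1 cRPKM in 2-cell embryos and between 55.6 and 60.7 cRPKM in 1-cell embryos. In the small subunit the highest genes were Mrps33, Mrps23 and Mrps21. Mrps23, a mitochondria-specific protein, had 50.2, 58.2, 46.8 and 57.2 cRPKM in 2-cell embryos and 48.9, 47.4, 45.1 and 39.8 cRPKM in 1-cell embryos. Mrpl18 supplied 12.1% of the large subunit's summed cRPKM at the 2-cell stage and 10.4% at the 1-cell stage. The largest shares in the small subunit were 12.9% for Mrps23 at the 2-cell stage and 14.1% for Mrps33 at the 1-cell stage.

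Between the 1-cell and the 2-cell stage the genes moved in both directions, and falls outnumbered rises. Of the 76 genes tested, 14 rose, 43 fell and 19 were not called in 2-cell embryos relative to 1-cell embryos (edgeR quasi-likelihood test with injection as a term, adjusted p under 0.05 over 16264 genes). Over all genes tested, 38.1% were called higher and 32% lower at the 2-cell stage, so that the members' 56.6% of falls lay above and their 18.4% of rises below that background. The median log2 change of the members was -0.51, beside 0.15 for all genes tested. At least 2-fold differences were reached by 8 of the rises and 26 of the falls, beside 4776 rises and 3210 falls among the 16264 genes tested. All 57 called genes moved the same way in each of the 4 injections. The cRPKM of the 4 libraries of a stage did not overlap with those of the other for 48 of the 77 genes, 16 of them above and 32 below at the 2-cell stage. Neither of these was counted over all genes, so they cannot be read as particular to the members. The values are relative to the counted polyadenylated RNA of each pool, so the amount of RNA per embryo or per cell was not measured. Scaling bears on the balance. With library totals in place of TMM factors the median over all genes tested moved to 0.41 and that of the members to -0.25. Then 18 members were higher and 33 lower at the 2-cell stage, beside 44.7% higher and 25.6% lower of all genes tested. The changes are therefore best read relative to the median of all genes.

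**Figure D1:**
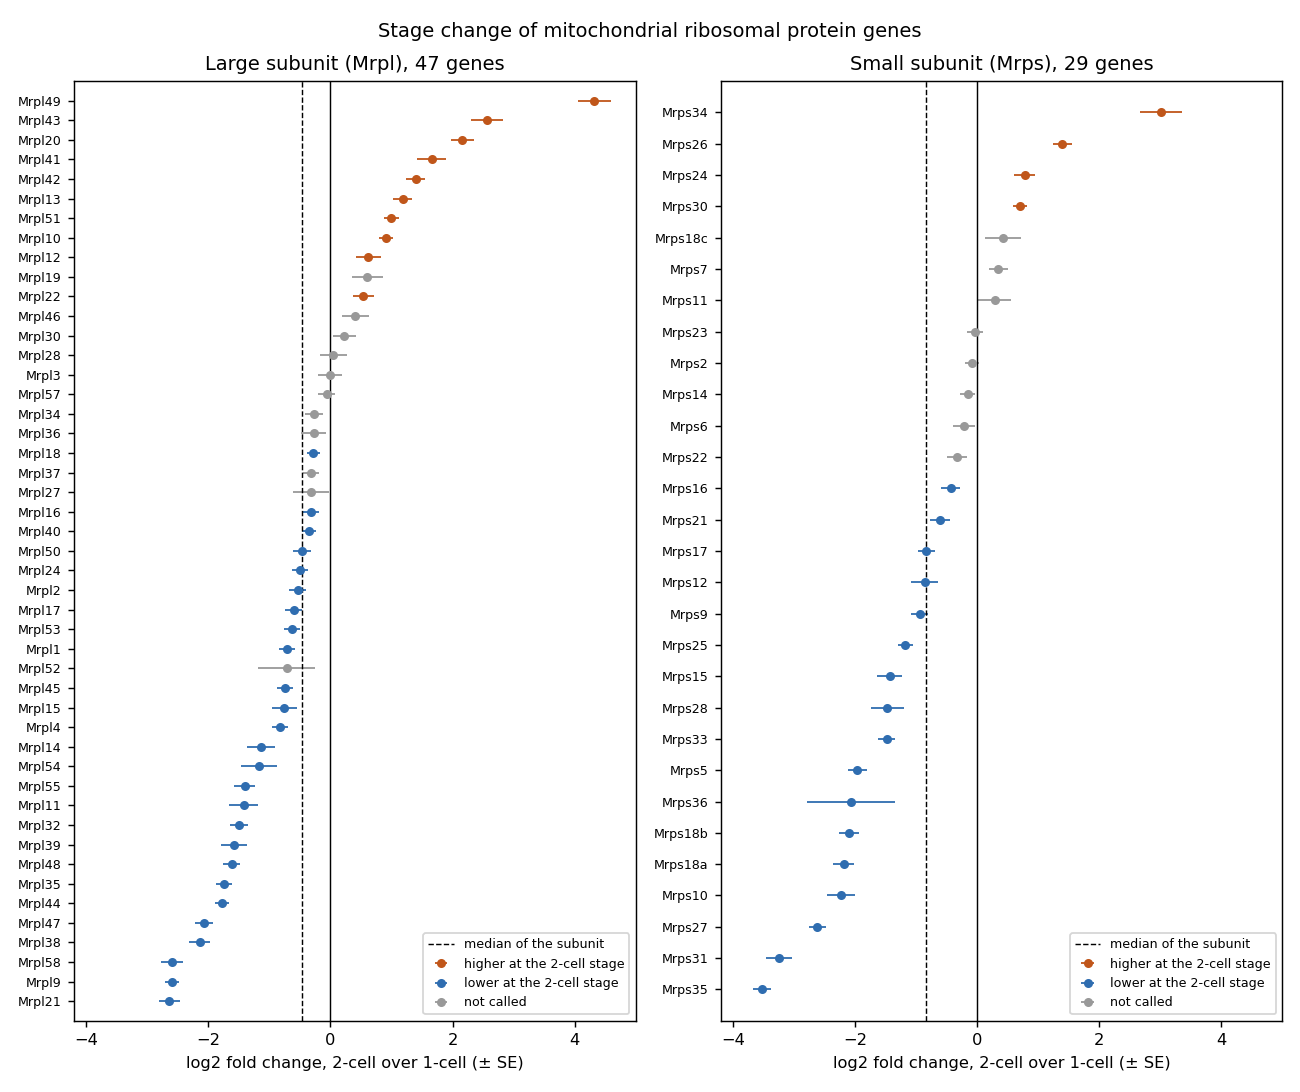
Log2 fold change of 2-cell over 1-cell embryos (x axis, ± SE derived from the edgeR F statistic) of the 47 tested large subunit genes (left) and the 29 small subunit genes (right), ordered by size. Orange and blue points were called higher and lower at the 2-cell stage, grey points were not called, and the dashed lines mark the subunit medians of -0.47 and -0.84.

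In the large subunit 10 genes rose and 26 fell of 47 tested, with a median log2 change of -0.47. In the small subunit 4 rose and 17 fell of 29, with a median of -0.84. Mrps36 was among these falls, with only 2 to 4 reads in 2-cell libraries and 10 to 16 in 1-cell libraries. Names and structure do not fully match: Mrps30 (mL65) and Mrps18a (mL66) sit in the large subunit, and Mrps36 is now known as a subunit of the 2-oxoglutarate dehydrogenase complex. Sorted by structure, 11 genes rose and 27 fell of 49 in the large subunit, and 3 rose and 15 fell of 26 in the small one. Proteins with a bacterial homolog supplied 6 rises and 27 falls of 46 tested, and the mitochondria-specific ones 8 rises and 16 falls of 30. The medians of those classes were -0.51 and -0.54.

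The promoters of the genes at both ends of the range are shown because the direction of change differed so widely within 1 machine. Promoter windows of RefSeq (GRCm38.p6), 250 bases before to 50 after the start of each gene, matched 68 of the 77 members, 3 of them with more than 1 start, of which the first listed was used. Mrps34 and Mrps35 had no window. The 250 bases before the start are printed 5′ to 3′ on the strand of the gene, with capitals on any match, on either strand, to the ETS core CCGGAAG, the NRF1 core GCGCATGC, the YY1 motif AAGATGG, the E2F motif TTCCCGC, the CCAAT box or the TATA box TATAAA. Mrpl49 and Mrpl43, the largest rises with a window, lie at chr19:6057756-6058005, minus strand, and chr19:45006443-45006692, minus strand. Mrps31 and Mrpl21, the largest falls with a window, lie at chr8:22411090-22411339, plus strand, and chr19:3282792-3283041, plus strand.
Mrpl49: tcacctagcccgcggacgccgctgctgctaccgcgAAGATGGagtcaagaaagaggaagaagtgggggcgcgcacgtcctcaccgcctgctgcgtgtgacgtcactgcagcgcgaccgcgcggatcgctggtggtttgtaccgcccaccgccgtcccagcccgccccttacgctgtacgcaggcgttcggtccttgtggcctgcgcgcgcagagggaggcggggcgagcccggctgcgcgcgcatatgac
Mrpl43: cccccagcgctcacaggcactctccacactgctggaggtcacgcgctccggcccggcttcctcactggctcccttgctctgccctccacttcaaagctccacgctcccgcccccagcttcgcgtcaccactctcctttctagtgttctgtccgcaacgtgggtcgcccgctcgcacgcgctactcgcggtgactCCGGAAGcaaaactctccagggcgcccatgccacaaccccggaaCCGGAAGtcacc
Mrps31: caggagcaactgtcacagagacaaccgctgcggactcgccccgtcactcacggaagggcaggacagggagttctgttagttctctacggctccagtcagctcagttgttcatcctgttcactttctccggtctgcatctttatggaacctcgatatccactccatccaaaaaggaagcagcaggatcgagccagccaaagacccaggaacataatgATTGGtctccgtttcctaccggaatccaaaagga
Mrpl21: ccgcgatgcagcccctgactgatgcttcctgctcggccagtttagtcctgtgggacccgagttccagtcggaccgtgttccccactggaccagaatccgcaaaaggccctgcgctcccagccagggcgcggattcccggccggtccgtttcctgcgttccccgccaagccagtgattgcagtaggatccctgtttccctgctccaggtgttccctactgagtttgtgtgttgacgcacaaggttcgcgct
Counted over the full windows of 300 bases, the ETS core, recognised by GABP among other factors, was in 24 of 68 members or 35.3%, against 9.12% of 27025 genes with a window. The YY1 motif was in 13 members or 19.1%, against 6.48% of all windows, and the NRF1 core in 7 or 10.3%, against 2.80%. The TATA box was in 4 members or 5.88%, against 14.2% of all windows. The members' windows had a median GC content of 58.5%, against 52.7% for all. By direction, the ETS core was in 4 of 12 windows of genes that rose, 12 of 37 of genes that fell and 8 of 18 of genes not called. The CCAAT box was in 38.2% of the members' windows, against 37.9% of all. Past the start, and so not printed, the window of Mrpl21 has an ETS core at base 8 and that of Mrpl49 a further YY1 motif at base 17.

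The largest rise was that of Mrpl49, a mitochondria-specific large subunit protein. It had 8.20, 15.6, 9.61 and 13.9 cRPKM in 2-cell embryos and 0.59, 0.42, 0.49 and 0.40 cRPKM in 1-cell embryos, a difference of 20.04-fold (log2 change 4.33 ± 0.27, SE; edgeR adjusted p = 3.28e-07). Every 2-cell library was far above every 1-cell library. Mrpl43, another protein without a bacterial counterpart, had 9.44, 16.4, 9.81 and 11.5 cRPKM in 2-cell embryos and 1.72, 1.16, 2.11 and 1.58 cRPKM in 1-cell embryos (log2 change 2.57 ± 0.26, edgeR adjusted p = 9.82e-06). Its exons share 33.4% of their bases with Twnk on the other strand, and Twnk itself was not called (log2 change -0.21, edgeR adjusted p = 0.206). The Snrpd2 library was the highest of the 2-cell stage for both genes. Mrpl20, whose bacterial homolog binds the rRNA early in assembly, averaged 13.7 ± 1.65 cRPKM in 2-cell embryos and 2.54 ± 0.0404 cRPKM in 1-cell embryos (SD, n = 4 each), with a log2 change of 2.16. Mrpl41 and Mrpl42, both mitochondria-specific, rose less, with log2 changes of 1.66 and 1.40. Their lowest 2-cell libraries, 13.9 and 24.95 cRPKM, lay above their highest 1-cell libraries, 5.55 and 10.5 cRPKM. Among the other called rises were both proteins of the stalk that receives the translation factors: Mrpl10 had 63.5, 67.7, 61.5 and 68.2 cRPKM in 2-cell embryos and 27.2, 33.4, 27.3 and 28.3 cRPKM in 1-cell embryos. Mrpl12 had between 17.2 and 28.3 cRPKM in 2-cell embryos and between 8.21 and 15.3 cRPKM in 1-cell embryos. Mrpl11, at the base of the same stalk, went the other way, with 3.45, 4.12, 3.15 and 2.86 cRPKM in 2-cell embryos and 6.37, 6.34, 7.49 and 10.7 cRPKM in 1-cell embryos (log2 change -1.42 ± 0.24, edgeR adjusted p = 0.000381). The stalk genes were picked out after their values were seen.

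The largest falls of the large subunit were Mrpl21, Mrpl9, Mrpl58, Mrpl38 and Mrpl47. Mrpl21, a protein with a bacterial homolog, had 4.78, 7.19, 5.03 and 4.42 cRPKM in 2-cell embryos and 26.3, 26.1, 26.8 and 30.7 cRPKM in 1-cell embryos, 6.22-fold lower at the 2-cell stage (log2 change -2.64 ± 0.17, edgeR adjusted p = 3.77e-07). Mrpl9, homolog of the elongated bacterial L9 protein, was the second most abundant large subunit mRNA of the zygote. It had 14.9, 20.04, 16.1 and 19.6 cRPKM in 2-cell embryos and 84.2, 88.9, 83.0 and 98.5 cRPKM in 1-cell embryos (log2 change -2.59 ± 0.12, edgeR adjusted p = 4.71e-08). The groups were far apart, and Mrpl9 was no longer among the 5 highest genes of its subunit in 2-cell embryos, where Mrpl10 stood among them. Mrpl58, also called ICT1, is a peptidyl-tRNA hydrolase that rescues stalled ribosomes and is built into the large subunit. It averaged 3.57 ± 0.778 cRPKM in 2-cell embryos and 17.96 ± 3.27 cRPKM in 1-cell embryos (SD, n = 4 each; log2 change -2.59). Mrpl38, a mitochondria-specific protein, and Mrpl47, the counterpart of bacterial L29 at the tunnel exit, fell by 2.14 and 2.07 on the log2 scale. The exons of Mrpl47 share 10.2% of their bases with Actl6a and 13.9% with Ndufb5 on the other strand. Both of those genes were lower at the 2-cell stage, by 1.22 and 0.73 on the log2 scale. Mrpl48, a mitochondria-specific protein of the central protuberance, averaged 26.7 ± 2.59 cRPKM in 2-cell embryos and 69.5 ± 17.1 cRPKM in 1-cell embryos, and Mrpl32 averaged 31.6 ± 5.06 and 74.96 ± 12.8 cRPKM at those stages (SD, n = 4 each). Mrpl4, which lines the peptide tunnel, fell by 0.83. Mrpl18 and Mrpl40, among the highest genes, had small changes: they were called lower by 0.28 and 0.35 (edgeR adjusted p = 0.0387 and 0.0143), and neither call held with library totals. Leaving out 1 library at a time, the call of Mrpl18 was kept only without the 2-cell or the 1-cell Snrpd2 library, and that of Mrpl40 was lost only without the 2-cell or the 1-cell library given both mRNAs (adjusted p = 0.0835 and 0.0643). Mrpl3, which reaches towards the peptidyl transferase centre, had a log2 change of 0.00 ± 0.20 (edgeR adjusted p = 0.994).

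**Figure D2:**
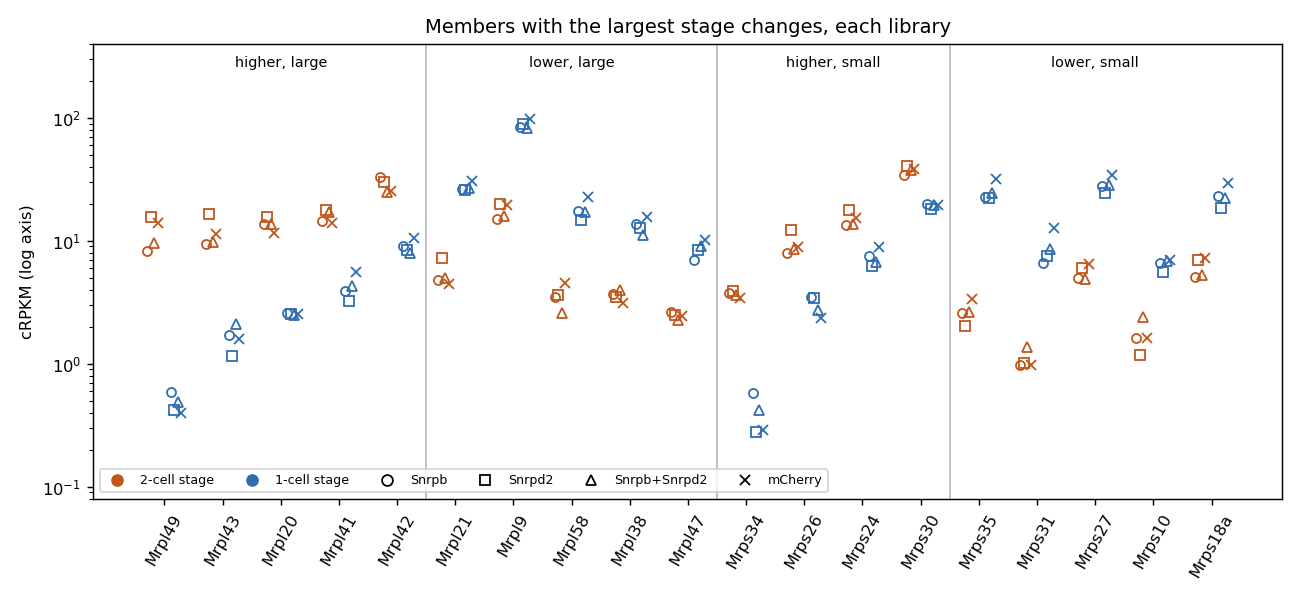
Level in cRPKM (log axis) of the called genes with the largest stage changes of each subunit, with 2-cell libraries in orange left of 1-cell libraries in blue and 1 symbol per injection. The stages do not overlap in any gene shown, with levels from 8.20 to 15.6 cRPKM against 0.40 to 0.59 cRPKM for Mrpl49 and from 2.03 to 3.39 cRPKM against 22.5 to 31.9 cRPKM for Mrps35.

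In the small subunit 4 genes rose. Mrps34, a mitochondria-specific protein, had 3.75, 3.92, 3.64 and 3.46 cRPKM in 2-cell embryos and 0.58, 0.28, 0.42 and 0.29 cRPKM in 1-cell embryos (log2 change 3.02 ± 0.34, edgeR adjusted p = 2.30e-05). The groups did not overlap. Its exons share 37.0% of their bases with Nme3 on the same strand and 63.4% with Mapk8ip3 on the other strand, and both of those genes were lower at the 2-cell stage, by 0.78 and 1.13 on the log2 scale. Mrps26, also mitochondria-specific, averaged 9.45 ± 1.88 cRPKM in 2-cell embryos and 2.99 ± 0.544 cRPKM in 1-cell embryos (SD, n = 4 each; log2 change 1.40). Mrps24, the counterpart of bacterial S3 at the mRNA entry, had a log2 change of 0.78; it shares 15.4% of its exon bases with Urgcp on the same strand, which was higher at the 2-cell stage by 4.05 (2.24 cRPKM at the 2-cell stage and 0.115 cRPKM at the 1-cell stage). Mrps30, the large subunit protein with a small subunit name, had 34.4, 41.0, 37.5 and 38.3 cRPKM in 2-cell embryos and 19.9, 18.3, 19.6 and 19.7 cRPKM in 1-cell embryos, with a log2 change of 0.70 ± 0.12 (edgeR adjusted p = 0.00041).

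Mrps35 and Mrps31, both mitochondria-specific, had the largest falls of all 76 genes. Mrps35 had 2.57, 2.03, 2.64 and 3.39 cRPKM in 2-cell embryos and 22.9, 22.5, 24.7 and 31.9 cRPKM in 1-cell embryos, 11.5-fold lower at the 2-cell stage (log2 change -3.52 ± 0.15, edgeR adjusted p = 3.65e-08). Mrps31 had 0.98, 1.02, 1.36 and 0.98 cRPKM in 2-cell embryos and 6.58, 7.49, 8.62 and 12.7 cRPKM in 1-cell embryos (log2 change -3.25 ± 0.21, edgeR adjusted p = 4.91e-07). For both genes the mCherry library was the highest of the 1-cell stage. Mrps27, which carries RNA-binding pentatricopeptide repeats, averaged 5.63 ± 0.786 cRPKM in 2-cell embryos and 28.9 ± 4.003 cRPKM in 1-cell embryos (SD, n = 4 each; log2 change -2.62). Mrps10, the homolog of bacterial S10 in the head of the subunit, averaged 1.71 ± 0.497 cRPKM in 2-cell embryos and 6.52 ± 0.650 cRPKM in 1-cell embryos (log2 change -2.23). Mrps33, the most abundant small subunit mRNA of the zygote, had 28.9, 39.9, 28.9 and 36.02 cRPKM in 2-cell embryos and 70.1, 66.8, 74.5 and 102 cRPKM in 1-cell embryos (log2 change -1.48 ± 0.14, edgeR adjusted p = 4.97e-06). Mrps21, the homolog of bacterial S21, was called lower by 0.61 (edgeR adjusted p = 0.00623), or by 0.35 and not called with library totals, and Mrps23 had a log2 change of -0.03 ± 0.13 (edgeR adjusted p = 0.836).

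Of the 3 relatives of bacterial S18, Mrps18a and Mrps18b fell and Mrps18c was not called. Only Mrps18c occupies the S18 site itself, while the other two occupy their own places, Mrps18a in the large subunit. Mrps18b had 12.4, 17.2, 10.5 and 14.6 cRPKM in 2-cell embryos and 42.5, 41.1, 48.8 and 63.5 cRPKM in 1-cell embryos (log2 change -2.10 ± 0.16, edgeR adjusted p = 1.38e-06). Mrps18a had 5.08, 7.03, 5.28 and 7.29 cRPKM in 2-cell embryos and 23.4, 18.5, 22.5 and 29.4 cRPKM in 1-cell embryos (log2 change -2.18). The stages were well apart in both. Mrps18c had 7.37, 9.54, 7.22 and 4.47 cRPKM in 2-cell embryos and 4.08, 3.45, 4.36 and 5.66 cRPKM in 1-cell embryos, which overlapped through the mCherry pair (log2 change 0.42 ± 0.29, edgeR adjusted p = 0.214). Without the 2-cell mCherry library its log2 change was 0.73 and its edgeR adjusted p = 0.0316, and without the 1-cell one they were 0.69 and 0.0459. The bases before the start of the 3 genes, at chr17:46110754-46111003, plus strand, chr17:35916441-35916690, minus strand, and chr5:100798509-100798758, plus strand, are shown to compare the relatives.
Mrps18a: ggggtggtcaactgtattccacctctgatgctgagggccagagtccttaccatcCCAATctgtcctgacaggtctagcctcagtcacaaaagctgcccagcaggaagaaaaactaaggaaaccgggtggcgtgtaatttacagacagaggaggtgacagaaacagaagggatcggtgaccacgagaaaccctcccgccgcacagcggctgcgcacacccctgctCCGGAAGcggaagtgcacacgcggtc
Mrps18b: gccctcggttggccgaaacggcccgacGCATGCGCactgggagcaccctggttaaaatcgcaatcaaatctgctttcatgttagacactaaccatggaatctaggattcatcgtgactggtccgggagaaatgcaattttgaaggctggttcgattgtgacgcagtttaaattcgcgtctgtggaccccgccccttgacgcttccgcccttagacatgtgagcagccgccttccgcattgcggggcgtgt
Mrps18c: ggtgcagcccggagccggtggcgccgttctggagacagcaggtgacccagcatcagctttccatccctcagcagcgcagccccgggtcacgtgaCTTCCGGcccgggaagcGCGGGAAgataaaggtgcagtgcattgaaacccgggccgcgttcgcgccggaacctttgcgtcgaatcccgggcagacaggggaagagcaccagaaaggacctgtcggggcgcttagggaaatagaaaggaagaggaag
Capitals mark the same motifs as above. The ETS core and the CCAAT box are in the stretch of Mrps18a, the NRF1 core in that of Mrps18b, and the ETS core and the E2F motif in that of Mrps18c. Past the start, and so not printed, the window of Mrps18b also has an NRF1 core at base 29 and an ETS core at base 44. That of Mrps18a has a YY1 motif at base 12.

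The summed level was lower at the 2-cell stage in both subunits. The 48 large subunit genes summed to 792, 961, 821 and 888 cRPKM in 2-cell embryos and to 986, 972, 976 and 1146 cRPKM in 1-cell embryos. The 29 small subunit genes summed to 371, 477, 377 and 417 cRPKM in 2-cell embryos and to 528, 500, 542 and 654 cRPKM in 1-cell embryos. In both subunits every 2-cell library lay below every 1-cell library, the Snrpd2 library was the highest of the 2-cell stage and the mCherry library the highest of the 1-cell stage. The means were 865 ± 75.4 and 1020 ± 84.2 cRPKM for the large subunit at the 2-cell and 1-cell stage, a ratio of 0.849, and 411 ± 48.9 and 556 ± 67.5 cRPKM for the small subunit, a ratio of 0.739 (SD, n = 4 each). After TMM scaling these ratios were 0.709 and 0.617. Large over small, the ratio of the sums was 2.14, 2.01, 2.17 and 2.13 in 2-cell embryos and 1.87, 1.94, 1.80 and 1.75 in 1-cell embryos. These ranges did not overlap. Without Mrpl18 and Mrps33, the highest genes of each subunit over all libraries, they did, with a mean ratio of 2.02 ± 0.0555 at the 2-cell stage and 1.92 ± 0.0672 at the 1-cell stage (SD, n = 4 each). Without Mrpl18 and Mrps23, the highest genes of the 2-cell stage, a choice made after seeing the data, the ranges stayed apart, with 2.13 ± 0.0717 and 1.80 ± 0.107 at those stages. The median cRPKM behaved otherwise, since that of the large subunit was 12.6 at the 2-cell stage and 9.41 at the 1-cell stage, while that of the small subunit was 10.05 and 15.5.

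**Figure D3:**
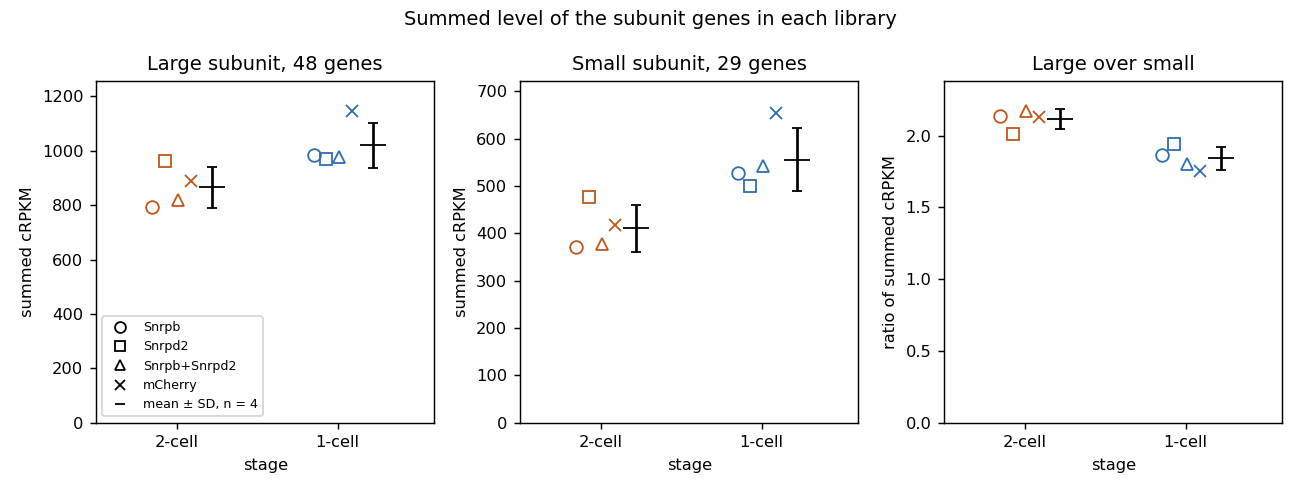
Summed cRPKM of the large subunit genes, of the small subunit genes, and their ratio (y axes from 0) in each library, with 2-cell libraries left of 1-cell libraries, 1 symbol per injection, and the mean ± SD of the 4 libraries beside them. The ratio lies between 2.01 and 2.17 in 2-cell embryos and between 1.75 and 1.94 in 1-cell embryos.

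The subunits that the symbol rule misses, and the other genes of mitochondrial translation, moved in both directions as well. Their counts stand beside the 38.1% higher and 32% lower of all genes tested. Dap3, Ptcd3, Chchd1, Aurkaip1 and Gadd45gip1 encode further ribosomal proteins, and 1 rose and 4 fell. Dap3, a GTP-binding protein of the small subunit, had 15.5, 18.4, 14.9 and 15.4 cRPKM in 2-cell embryos and 74.4, 65.1, 70.2 and 84.1 cRPKM in 1-cell embryos (log2 change -2.45). Gadd45gip1, of the large subunit, had a like log2 change of -2.43, Ptcd3 -1.55, Chchd1 -0.73 and Aurkaip1 0.78. Among translation factors 2 rose and 7 fell of 13; Guf1, a back-translocase, had a log2 change of 0.98, and Gfm1, the elongation factor that moves the ribosome along, one of -2.12. Of 27 genes for assembly and rRNA modification 7 rose and 12 fell. Mrm3 and Mrm1, methyltransferases of the large rRNA, were near 0 in 1-cell embryos, with at most 0.18 and 0.43 cRPKM, and had between 3.22 and 3.91 and between 3.14 and 4.39 cRPKM in 2-cell embryos. Mterf4, which brings an rRNA methyltransferase to the large subunit, had 6.59, 8.32, 6.11 and 5.84 cRPKM in 2-cell embryos and 70.8, 66.3, 72.9 and 94.0 cRPKM in 1-cell embryos (log2 change -3.76). Of 17 aminoacyl-tRNA synthetases 4 rose, led by Mars2 (log2 change 3.52), and 8 fell, led by Aars2 (-4.38). Of 11 genes for the transcription and copying of mitochondrial DNA 4 rose and 4 fell, or 36.4% each way, close to the background. Among 10 regulators of nuclear genes for mitochondria 4 rose and 3 fell. Gabpa, the DNA-binding subunit of GABP, had 43.7, 59.4, 51.4 and 39.7 cRPKM in 2-cell embryos and 0.39, 0.28, 0.72 and 0.10 cRPKM in 1-cell embryos. Gabpb1, its partner subunit, averaged 40.4 ± 1.88 cRPKM in 2-cell embryos and 57.96 ± 4.91 cRPKM in 1-cell embryos (SD, n = 4 each; log2 change -0.78, edgeR adjusted p = 0.000142), and was named after its values were seen. Yy1 had between 4.80 and 7.18 cRPKM in 2-cell embryos and between 0.08 and 0.30 cRPKM in 1-cell embryos, and Nrf1 between 46.3 and 51.5 and between 90.9 and 122 cRPKM. Of 8 nuclear genes of the mitochondrial outer membrane, of import and of protein folding, 3 rose and 2, Vdac3 and Timm44, fell.

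The study's own contrast, extra Sm protein mRNA against mCherry, gave no called member. At the 1-cell stage 0 of 76 genes passed (edgeR quasi-likelihood test of 3 Sm libraries against 1 mCherry library, which was assumed to vary like the others), beside 0.00% higher and 0.00% lower of 16867 genes tested, and 12 members had an unadjusted p under 0.05, against 2618 of all genes. DESeq2 on the same counts called 420 genes higher and 114 lower, among them Mrpl3 (higher, adjusted p = 0.0200) and Mrpl48 (lower, adjusted p = 0.0430). Without a test, the members leaned to lower levels in Sm-injected zygotes: 62 of 76 had a log2 change below 0, the median was -0.28 (-0.26 in the large subunit, -0.31 in the small), and the median of all genes tested was 0.00. In 53 of the 76 all 3 Sm libraries lay below the mCherry library, and in 5 all 3 lay above it. This was not counted over all genes, so it cannot be read as particular to the members. All of these comparisons share the 1-cell mCherry library, which also held the largest share of reads in members. The 21 cumulus and granulosa markers summed to 40.1, 35.1 and 55.4 cRPKM in zygotes given Snrpb, Snrpd2 and both, against 24.3 cRPKM with mCherry, with 18 to 20 of the 21 above 0 reads in each and Col1a2 at 0 in all 4; their part in the result was not tested.

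At the 2-cell stage 0 of 76 members passed as well, beside 0.00% higher and 0.00% lower of all genes tested by edgeR, with 2 members and 637 of all genes at an unadjusted p under 0.05 and 0 calls by DESeq2. The median log2 change was -0.07, beside 0.02 for all genes tested, or -0.18 without the Snrpd2 library and -0.02 without the Snrpb library. Against mCherry, the median log2 ratio was -0.22 with Snrpb, 0.06 with Snrpd2 and -0.14 with both, 1 library against 1. At the 1-cell stage these values were -0.18, -0.37 and -0.29. By these medians Snrpd2 embryos were the highest of the Sm injections at the 2-cell stage and the lowest as zygotes. For all genes tested, the medians of the same ratios lay between -0.021 and 0.008. Set directly against each other, Snrpb over Snrpd2, 17 of 76 members were higher with Snrpb at the 2-cell stage (median log2 ratio -0.25) and 63 of 76 at the 1-cell stage (0.12). Of all 16264 genes tested, 8105 and 8227 were higher with Snrpb at those stages (medians -0.002 and 0.006). Fitted over both stages, Snrpb, Snrpd2 and both over mCherry had medians of -0.21, -0.11 and -0.22, beside 0.005, -0.002 and -0.006 for all genes tested. These comparisons had 0 called members each by edgeR and by DESeq2. In edgeR 2 members each had an unadjusted p under 0.05, beside 583, 497 and 506 of all 16264 genes tested. Over all genes 0.00615% were called higher for Snrpd2 and 0.00% in each other direction and injection. The Snrpd2 median turned its sign without 1-cell libraries: it was 0.09 without the Snrpd2 one and 0.01 without the mCherry one.

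**Figure D4:**
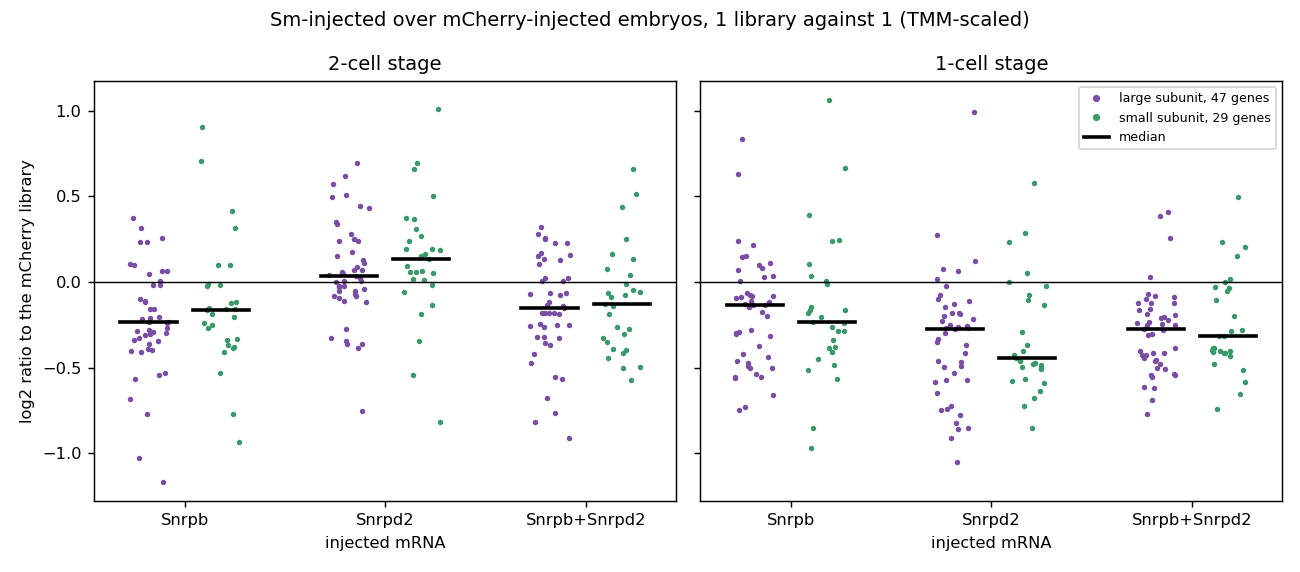
Log2 ratio of each Sm-injected library to the mCherry library of its stage (y axis, TMM-scaled counts) for the tested members, with the 2-cell stage in the left panel, the 1-cell stage in the right panel, large subunit genes in purple and small subunit genes in green. Black bars are medians. Over both subunits they are -0.22, 0.06 and -0.14 at the 2-cell stage and -0.18, -0.37 and -0.29 at the 1-cell stage for Snrpb, Snrpd2 and both.

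Mrpl3 had the lowest p of any member at the 1-cell stage and lay above mCherry, where most members lay below it. In 1-cell embryos it had 67.1, 78.1 and 54.2 cRPKM with Snrpb, Snrpd2 and both, against 40.2 cRPKM with mCherry (log2 change 0.77 ± 0.21, edgeR adjusted p = 0.162). In 2-cell embryos it had 66.0, 68.2 and 63.3 cRPKM in those injections, against 82.8 cRPKM with mCherry (log2 change -0.38 ± 0.19, edgeR adjusted p = 1). All 3 Sm libraries were above mCherry at the 1-cell stage and below it at the 2-cell stage. Counting error was small beside these differences: with Snrpd2 the 1-cell ratio was 1.99 with a 95% interval of 1.91 to 2.08 (exact conditional binomial, from 6330 and 3352 reads). The difference between the stages in the Sm effect was -1.14 ± 0.28 and did not pass (edgeR unadjusted p = 0.00185, adjusted p = 0.381). For the difference between the stages, 0 of 76 members and 0.00% of all genes in either direction were called by edgeR, with 6 members and 1648 of all genes at an unadjusted p under 0.05, and 0 members by DESeq2, which called 8 genes higher and 23 lower over all genes.

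Other members with low p at the 1-cell stage were lower with Sm mRNA. Mrpl48 had 63.8, 53.4 and 67.1 cRPKM with Snrpb, Snrpd2 and both, against 93.6 cRPKM with mCherry (log2 change -0.57 ± 0.16, edgeR adjusted p = 0.164). Mrpl4 had 28.97, 30.3 and 31.3 cRPKM, against 44.9 cRPKM with mCherry (log2 change -0.54 ± 0.16, edgeR adjusted p = 0.178), and Mrps31 had 6.58, 7.49 and 8.62 cRPKM, against 12.7 cRPKM (log2 change -0.72 ± 0.24, edgeR adjusted p = 0.215). In each of these genes the mCherry library stood above all 3 Sm libraries. Mrps33 and Mrps22, mitochondria-specific proteins of the small subunit, had log2 changes of -0.50 and -0.49. At the 2-cell stage the Sm libraries of Mrps31, with 0.98, 1.02 and 1.36 cRPKM, lay at or above the 0.98 cRPKM of mCherry. The lowest p of the 2-cell stage belonged to Mrps18c, whose 7.37, 9.54 and 7.22 cRPKM with Sm mRNA stood above 4.47 cRPKM with mCherry, from 176, 251 and 168 reads against 112 (log2 change 0.80 ± 0.33, edgeR adjusted p = 1). At the 1-cell stage its order was turned, with 4.08, 3.45 and 4.36 cRPKM against 5.66 cRPKM, and the difference between stages was 1.28 ± 0.45 (edgeR adjusted p = 0.421). Mrps35 was lower with every Sm injection at both stages, as 2.57, 2.03 and 2.64 cRPKM stood against 3.39 cRPKM with mCherry in 2-cell embryos and 22.9, 22.5 and 24.7 cRPKM against 31.9 cRPKM in 1-cell embryos. Its log2 change over both stages was -0.62 ± 0.20 with Snrpd2 (edgeR unadjusted p = 0.0118, adjusted p = 0.998). In Mrpl15, a core protein of the large subunit, the Snrpd2 libraries were likewise the lowest or nearly so, with 0.64 against 1.03 cRPKM with mCherry in 2-cell embryos and 0.80 against 1.55 cRPKM in 1-cell embryos (log2 change -0.83 ± 0.29, edgeR adjusted p = 0.998).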

How the data were processed

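The deposited tables, 1 per library, gave read counts per Ensembl gene and cRPKM, an RPKM value made by the authors from those counts. Genes without a value were left out. Reads were placed on mm9, as the submitters' processing notes name it. Which aligner was run, and whether counting used strand or shared reads, is not given in the sources used here. Members that overlap another gene are therefore uncertain. By GENCODE vM21, 32 of 77 share exon bases with another gene, and 23 with another protein-coding gene. Mrps25 shares 69.8% with Nr2c2 and Mrpl18 10.1% with Tcp1, both on the other strand. With genes not classed as protein-coding, Mrps18b shares 30.5%, Mrps27 24.2% and, on the same strand, Mrps18c 23.2%. Symbols came from a list of mouse gene names by Ensembl identifier, and 20451 of 21553 genes had one. GENCODE vM21 was used for overlaps between genes only. A further symbol of the list of names that fits the rule, Mrpl33, was not analysed here.

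Counts were tested with edgeR 4.0.16 (quasi-likelihood, TMM, filterByExpr, Benjamini-Hochberg over all genes tested) in R 4.3.3. The SE of a log2 change was derived from this test, as the size of the change divided by the square root of the F statistic. The stage test and the test of each injection over both stages came from 1 fit with injection and stage as terms (8 libraries, 3 residual degrees of freedom, 16264 genes). The Sm effect at each stage and its difference between stages came from a fit with 4 groups (4 residual degrees of freedom, 16867 genes). Scripts were tested on simulated data. Single libraries were compared as TMM-scaled ratios with exact 95% conditional binomial intervals. For a gene at 0 reads the limit was set at 3, or 0.05 to 0.076 CPM. Intervals and this floor cover counting error only. Log2 ratios used a prior of 0.5 reads. Sums, medians and shares of a list were given without a test.

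Named genes were, in each subunit, the 5 largest called rises and falls of the stage test, for each injection comparison the 3 members of each subunit with the lowest p, the 3 highest of each in cRPKM, members under 10 reads, the Mrps18 relatives, the subunits outside the symbol rule, and the 2 largest called changes each way in the other lists. Not every one of them is printed. The members and all lists were chosen with earlier results of these data known. Alternatives were DESeq2 1.42.0 size factors and test, library totals, no filter, limma 3.58.1 on log2(cRPKM + 0.1) or log2(cRPKM + 1), no injection term, and leaving out each library.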

Additional observations from a re-analysis of the deposited data

Results flagged for a closer look

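Among 84 groups of 4 libraries (39 named genes and 3 subunit measures at each stage), 8 held a library far from the other 3. Chance alone sets apart about 1 group in 20 where groups are independent and not selected. That rate does not apply here, as all groups come from the same libraries and part of the genes were named for a low p against mCherry. In 6 of the 8 the library set apart was the 1-cell mCherry library, and high. The genes were Mrpl4 with 44.9 cRPKM against 28.97 to 31.3 in the Sm libraries, Mrpl39 with 3.55 against 2.25 to 2.33, Mrps25 with 36.5 against 26.9 to 27.9, Mrpl18 with 119 against 101 to 103, and Mrpl21 with 30.7 against 26.1 to 26.8. The summed cRPKM of the large subunit at the 1-cell stage was set apart in the same library, with 1146 against 972 to 986. Mrps30 at the 1-cell stage had a low Snrpd2 library, 18.3 cRPKM against 19.6 to 19.9, and Mrps31 at the 2-cell stage a high library with both mRNAs, 1.36 cRPKM against 0.98 to 1.02.

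On TMM-scaled counts, in 8 named genes all 3 Sm libraries lay on one side of mCherry at the 1-cell stage and on the other at the 2-cell stage, which concerns the comparisons that share those mCherry libraries. No such count was made over all genes. In cRPKM the change of side did not hold for Mrps23, whose 2-cell Snrpd2 library had 58.2 against 57.2 with mCherry. The difference between the stages in the log2 Sm effect was -1.14 for Mrpl3 and -0.47 for Mrps23, which were above mCherry as zygotes, and 1.28 for Mrps18c, 0.92 for Mrpl11, 0.72 for Mrpl41, 0.50 for Mrpl21, 0.48 for Mrpl38 and 0.21 for Mrpl18, which were below it. None passed adjustment over all genes (edgeR adjusted p between 0.381 and 0.73).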

How the results depend on the processing

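Over the alternatives, 12 to 19 members were higher and 33 to 47 lower at the 2-cell stage, and without the injection term, which pairs the libraries of a stage test by injection, 16 were higher and 44 lower. The shares of all genes tested moved as well, from 31.3% to 45.9% higher and from 25.6% to 35.5% lower. Without the injection term they were 38.5% and 35.5%. The Sm comparisons within a stage have no pairing, as each condition has 1 library. The Sm comparisons had 0 called members in every alternative but DESeq2 at the 1-cell stage, with 1 higher and 1 lower. Of 873 alternative values of named genes 834 kept their direction and side of the threshold. Only the stage changes of Mrpl3 and Mrps23, neither of them called, turned their sign. Mrpl3 was 0.039 with DESeq2 size factors and with the DESeq2 test, 0.26 with library totals and with limma at either pseudocount, and -0.324 to 0.123 without single libraries. Mrps23 was 0.009 with DESeq2 size factors and with the DESeq2 test, 0.23 with library totals, 0.23 and 0.22 with limma, and -0.195 to 0.041 without single libraries. The ratio of large to small sums was 2.49 at the 2-cell stage and 2.09 at the 1-cell stage with subunits by structure, 1.26 and 0.607 as a ratio of medians, 2.02 and 1.92 without Mrpl18 and Mrps33, and 2.13 and 1.80 without Mrpl18 and Mrps23, added after seeing the data. The 2-cell over 1-cell ratio of the large subunit sum was 0.709 after TMM scaling, and 1.33 for the median cRPKM, which runs the other way. The cause was not tested. Genes of few reads limit precision: Mrps36 had 2 to 4 reads in 2-cell embryos and 10 to 16 in 1-cell embryos.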

Other observations

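The mRNAs of the mitochondrial genome, which the mitochondrial ribosome translates, ran the other way from the summed levels of both subunits. The 12 of them with a value, a list chosen after its values were seen, summed to 7370, 9889, 9592 and 10000 cRPKM in 2-cell embryos given Snrpb, Snrpd2, both and mCherry, and to 2363, 3311, 3627 and 2860 cRPKM in 1-cell embryos. They took between 0.432% and 0.563% of reads at the 2-cell stage and between 0.129% and 0.203% at the 1-cell stage.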
